A study of Mus musculus with 9 samples.

Results

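The genes described here encode the endosomal sorting machinery of ST2 cells, a stromal line from mouse bone marrow: the sorting nexins (Snx), the vacuolar protein sorting genes (Vps) and the charged multivesicular body proteins (Chmp). Members were all genes of the count table whose symbol was Snx with a number, Vps with a number and at most 1 letter, or Chmp with a number, and which had at least 10 counts in the 9 libraries together. That gave 72 members (28 Snx, 34 Vps and 10 Chmp genes) of 55453 genes in the table. Of 74 symbols of that form, Snx20 (3 counts) and Snx31 (1 count) fell under the limit, and Snx22, with 31 counts in all, was the member just above it. Snx22 did not pass the filter on low counts, so 71 members were tested among 13568 genes.

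The libraries fell into 3 groups of 3. Fed 24 h cells were ST2 cells, genotype WT, that had been given human neutrophils (PMN) at 10 per ST2 cell for 24 h and were sorted for uptake of the neutrophils' membrane stain, eF670, at a level matching 1 whole neutrophil or more. Fed 3 h cells had the same feeding and sort after 3 h. Unfed 24 h cells were ST2 cells, genotype WT, without neutrophils, collected at 24 h. All 3 groups were grown in alpha MEM without ascorbic acid and with serum. The fed cells are those that took up neutrophils, so feeding and selection for uptake cannot be told apart, and because there was no unfed group at 3 h, feeding and time differ together between fed 3 h and unfed 24 h cells. ST2 is a single line, derived from BC8 mice, and the neutrophils were frozen for at least 18 h before use. The labels do not say that replicates were separate cultures, so p-values measure the spread between these libraries only.

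Material that a cell takes in reaches the early endosome, where it is either sent back or passed on to the lysosome. Sorting nexins bind phosphoinositides through a PX domain and, with the retromer and retriever complexes, carry receptors back to the surface or the Golgi. ESCRT complexes (endosomal sorting complexes required for transport), which include the Chmp proteins, bud cargo into the endosome lumen and also seal damaged membranes and cut the bridge between daughter cells, while the tethers HOPS and CORVET bring endosomes, phagosomes and lysosomes together for fusion.

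Total counts were 49387906 to 55971275 in fed 24 h, 46322396 to 51205019 in fed 3 h and 44442664 to 48736073 in unfed 24 h libraries. The first principal component of all tested genes held 62.3% of the variance. Summed levels of 10 stromal markers were 32500 to 34300 CPM (library-scaled counts, with TMM factors) in fed 24 h libraries. They were 26000 to 26700 CPM in fed 3 h and 29500 to 31800 CPM in unfed 24 h libraries. With at least 1 count in a group taken as detected, 9, 10 and 9 of the 10 were detected. Thy1 had 0 counts in fed 24 h and unfed 24 h cells and 1 in fed 3 h cells. Cxcl12 had 7970, 2270 and 5710 CPM and Col1a1 12100, 13300 and 12600 CPM in fed 24 h, fed 3 h and unfed 24 h cells. Summed levels of 10 mouse macrophage markers were 24.7 to 28.1, 27.9 to 28.9 and 23.3 to 25.4 CPM in the same order of groups (6, 7 and 5 of 10 detected), with Adgre1, Fcgr1 and Tyrobp at 0 in all. Mouse neutrophil markers summed to 3.37 to 4.29, 0.755 to 1.42 and 2.32 to 2.95 CPM (6, 6 and 4 of 10 detected), with S100a9 and Ngp at 0 in all. Most of that sum was Camp, with 565, 132 and 355 counts in the 3 groups. Mitochondrial genes took 1.78 to 2.22% of counts in fed 24 h, 1.12 to 1.58% in fed 3 h and 1.48 to 1.61% in unfed 24 h libraries. Genes linked to ribosomal RNA took 0.201 to 0.35%, 0.0927 to 0.249% and 0.0904 to 0.115%. The part of these differences in the results below was not tested. RNA of the human neutrophils was not analysed here, as the table holds mouse genes. Whether reads of human RNA were counted under mouse genes in fed libraries was not tested.

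Close relatives did not always move together. Of 25 pairs of relatives, drawn from 28 genes and so sharing members, 6 had 1 gene called higher and the other lower in fed 3 h against unfed 24 h cells: Vps26a against Vps26b and Vps26c, Vps33a against Vps33b, Vps4b against Vps4a, Snx9 against Snx33 and Snx2 against Snx1. In 4 pairs both were called in the same direction (Vps37a and Vps37b, Chmp4b and Chmp4c higher; Vps13b and Vps13c, Vps26b and Vps26c lower), in 11 only 1 gene was called and in 4 neither. Of all tested genes, 25.1% were called higher and 25.5% lower in that comparison, and whether opposite calls are more frequent in these pairs was not tested. The promoters shown here are those of the retromer pair Vps26a and Vps26b and of the tether genes Vps33a and Vps16. They are shown because Vps26a, Vps33a and Vps16 hold the E-box CACGTG, in capitals, with GT before it and AC after it. That palindrome is known as the CLEAR element of lysosomal genes. The 300-base window of Vps26b does not hold it, and only the 150 bases before the start are printed. The E-boxes of Vps26a begin farther from their starts than that. All stretches are from the RefSeq promoter table (GRCm38.p6), 5′ to 3′ on the strand of the gene.
Vps26a at chr10:62486955-62487014, minus strand, first RefSeq start: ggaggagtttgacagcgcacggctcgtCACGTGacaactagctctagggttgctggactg
Vps26a at chr10:62486732-62486761, minus strand, second RefSeq start: atggcctacggtCACGTGacgggcggcggg
Vps33a at chr5:123573016-123573039, minus strand: tgaacgtcccgtCACGTGacgcag
Vps16 at chr2:130424275-130424319, plus strand: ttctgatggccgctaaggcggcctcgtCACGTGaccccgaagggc
Vps26b at chr9:27030095-27030244, minus strand: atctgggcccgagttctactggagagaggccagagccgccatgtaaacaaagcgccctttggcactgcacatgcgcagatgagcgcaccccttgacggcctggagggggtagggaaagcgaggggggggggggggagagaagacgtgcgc
The E-box began 182 and 151 bases before the 2 RefSeq starts of Vps26a, 12 bases before that of Vps33a and 18 bases before that of Vps16. By the coordinates of GENCODE M21, the second stretch of Vps26a lies inside its gene. The stretch of Vps33a overlaps the 5′ end of its gene, at chr5:123573038, and its E-box lies inside the gene.

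The machinery as a whole held a steady share of the RNA. Members summed to 4469 ± 24.9 CPM in fed 24 h, 4385 ± 54.3 CPM in fed 3 h and 4442 ± 43.5 CPM in unfed 24 h cells (SD, n = 3 each). Per kilobase of exon, the median member stood near the level of Snx27 (8.74 ± 0.181 CPM per kb in fed 24 h, 10.1 ± 0.193 in fed 3 h and 9.90 ± 0.29 in unfed 24 h cells). Snx3, a small PX protein that works with retromer, was the highest at 185 ± 1.43 CPM per kb in fed 24 h, 182 ± 3.42 in fed 3 h and 202 ± 12.1 in unfed 24 h cells. Next came the ESCRT-III genes Chmp4b and Chmp2a, with 67.0 ± 2.21 and 60.5 ± 4.16 CPM per kb in unfed 24 h cells, then Vps26a with 47.5 ± 0.75, Snx9 with 39.7 ± 1.46 and Snx17 with 39.1. Chmp4b and Chmp2a differed by more than the SD of either, and Snx9 and Snx17 did not differ beyond theirs. At the low end, above the untested Snx22, were Vps25 (0.188 ± 0.0532 CPM per kb) and Chmp4c (0.25 ± 0.00348 CPM per kb).

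**Figure D1:**
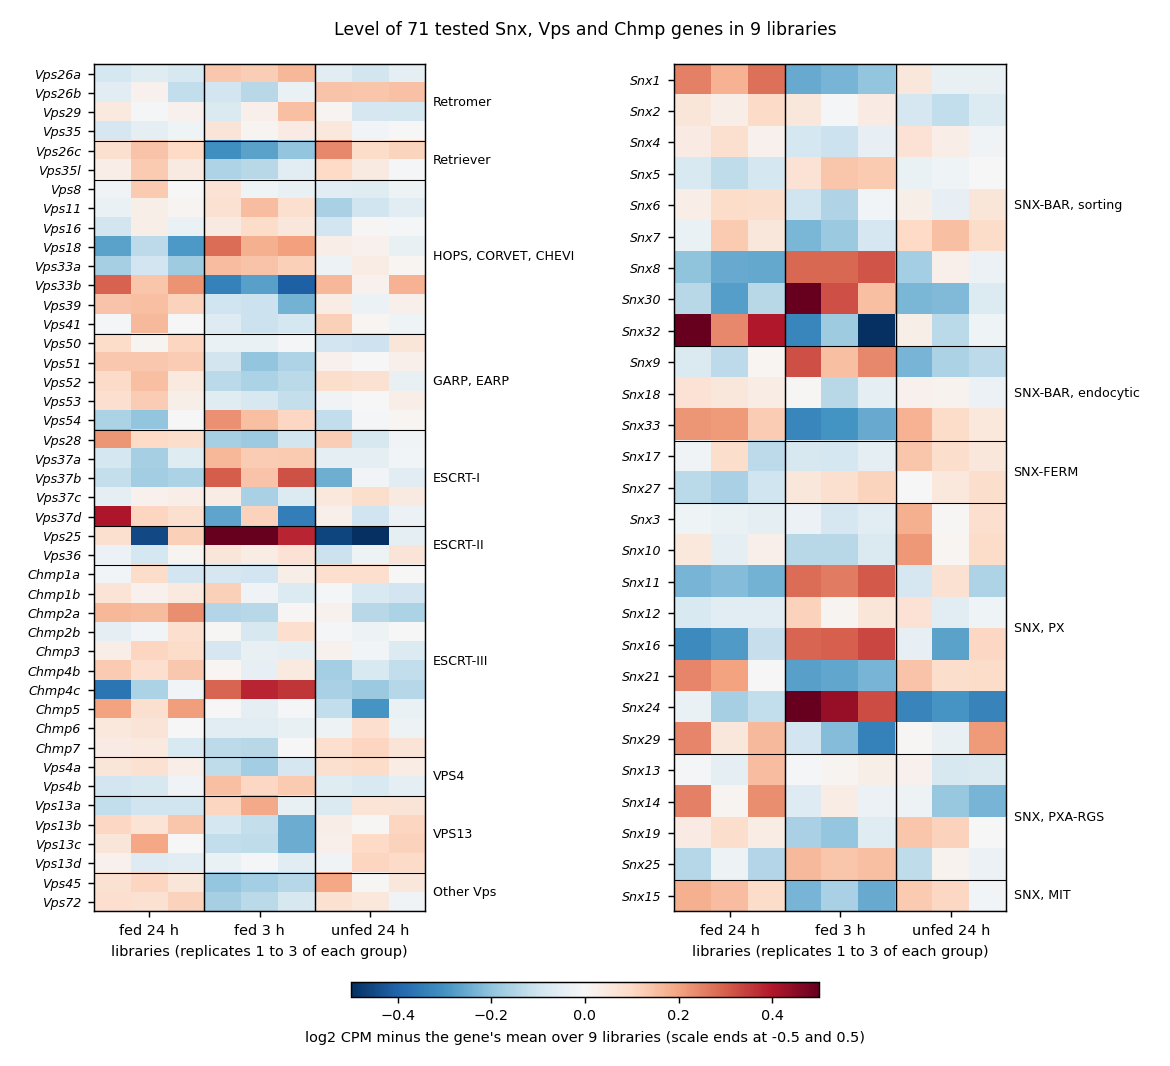
Each cell shows log2 CPM of 1 member in 1 library minus that gene's mean over the 9 libraries, with colours ending at -0.5 and 0.5. Columns are the 3 libraries of fed 24 h, fed 3 h and unfed 24 h cells, and lines part the complexes and nexin classes. Most contrasts set the fed 3 h columns apart from the other 6, and they run in both directions within a complex.

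After 24 h of feeding, few members differed from unfed cells. Of 71 members, 8 were higher (11.3%, against 14.9% of all 13568 genes) and 7 were lower (9.86%, against 15.9% of all genes) at an adjusted p under 0.05 in edgeR's quasi-likelihood test, 15 together (21.1%, against 30.8%). All 3 fed 24 h libraries lay above all unfed ones in 17 members (21.3% of all genes) and below them in 14 (22% of all genes). The median log2 fold change was 0.02 for members and -0.00126 for all genes, and the median absolute change was 0.0794 for members and 0.144 for all genes. Changes are given below as log2 fold changes with their standard error (SE). Without 1 library the count of lower members ranged from 3 to 8: it was 3 without fed 24 h replicate 1 or replicate 3, and 4 without unfed 24 h replicate 2 or replicate 3. In all, 9 of the 15 calls were made under each of the 17 alternatives.

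Among ESCRT-III genes, 3 of 10 rose at 24 h and 0 fell (14.9% and 15.9% of all genes). Chmp4b encodes the subunit that polymerises into the membrane-cutting filament. It stood at 161.9, 156.6 and 162.4 CPM in fed 24 h and at 131.5, 140.4 and 135.6 CPM in unfed 24 h libraries. All 3 fed libraries lay above all unfed ones, by 0.24 ± 0.04 on the log2 scale (SE, edgeR adjusted p = 0.000693). Chmp2a, whose product caps the filament and recruits the VPS4 ATPases, had 83.9, 83.6 and 87.9 CPM in fed 24 h and 75.9, 68.0 and 67.2 CPM in unfed 24 h libraries. Its groups did not overlap either, with unfed replicate 1 the nearest to the fed libraries (log2 fold change 0.27 ± 0.06 SE, edgeR adjusted p = 0.0018). Chmp5, a late-acting subunit that binds the regulator LIP5, had 47.3, 43.5 and 47.6 CPM in fed 24 h and 37.8, 33.6 and 40.2 CPM in unfed 24 h libraries. The 3 fed libraries were again the higher ones (log2 fold change 0.31 ± 0.06 SE, edgeR adjusted p = 0.00149). Chmp3, another capping subunit, had a log2 fold change of 0.10 ± 0.04 with an edgeR adjusted p of 0.0848. None of the 5 ESCRT-I, the 2 ESCRT-II and the 2 VPS4 genes was called at 24 h.

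Of 8 tethering genes (HOPS, CORVET and related), 2 were lower and 0 higher at 24 h. Of 4 retromer genes, 1 was lower and 0 were higher (15.9% of all genes were lower and 14.9% higher). Vps18, a RING-finger core subunit that HOPS and CORVET share, had 26.9, 29.6 and 26.5 CPM in fed 24 h and 33.2, 32.9 and 31.6 CPM in unfed 24 h libraries, with all fed libraries below all unfed ones (log2 fold change -0.23 ± 0.05 SE, edgeR adjusted p = 0.00462). Vps33a, the core subunit that assembles SNARE proteins for fusion, had 46.1, 48.4 and 45.8 CPM in fed 24 h and 50.9, 53.1 and 52.1 CPM in unfed 24 h libraries. Those groups did not overlap, but the call (log2 fold change -0.15 ± 0.04 SE, edgeR adjusted p = 0.0146) was lost without fed 24 h replicate 1 or 3 or without unfed 24 h replicate 2 or 3, at adjusted p of 0.0508 to 0.0702. Vps26b, one of a pair of arrestin-like retromer subunits, had 91.0, 96.1 and 87.0 CPM in fed 24 h and 104.4, 104.1 and 104.9 CPM in unfed 24 h libraries (log2 fold change -0.19 ± 0.05 SE, edgeR adjusted p = 0.00505). The unfed values were tight and every fed one lay below them. The other retromer subunits, Vps35 (the scaffold), Vps29 and Vps26a, had log2 fold changes of -0.06, 0.07 and -0.01 and were not called.

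Of 27 sorting nexins tested, 5 were higher and 4 lower at 24 h, near the shares of all genes (14.9% and 15.9%). Snx1, a BAR-domain nexin that bends endosomal membrane into tubules, had 94.3, 89.4 and 95.9 CPM in fed 24 h and 82.5, 77.2 and 77.2 CPM in unfed 24 h libraries (log2 fold change 0.24 ± 0.04 SE, edgeR adjusted p = 0.00108). Its partner Snx2 had 77.4, 75.8 and 79.3 CPM in fed 24 h and 69.9, 68.0 and 70.7 CPM in unfed 24 h libraries (log2 fold change 0.16 ± 0.04 SE, edgeR adjusted p = 0.00996). In both genes every fed library exceeded every unfed one. Snx27, which ties cargo with a PDZ-binding tail to retromer, was at 60.1, 59.0 and 61.5 CPM in fed 24 h and 66.1, 68.4 and 70.1 CPM in unfed 24 h libraries, with all fed values lower (log2 fold change -0.18 ± 0.04 SE, edgeR adjusted p = 0.00504). Snx14, mutated in a human cerebellar ataxia and placed at contacts of the endoplasmic reticulum with lipid droplets, rose by 0.31 ± 0.07 (edgeR adjusted p = 0.00389), and 8.83% of its 50-base stretches are also found in other genes. Snx32, at 4.71 CPM in fed 24 h and 3.47 CPM in unfed 24 h cells, rose by 0.44 ± 0.12 (edgeR adjusted p = 0.0142; up to 0.0726 without fed 24 h replicate 1 or unfed 24 h replicate 2). It is below the 5 CPM set for naming genes and is named after its value was seen. Of its 50-base stretches 9.71% are shared with Cfl1, and of those of Snx2 9.88% are shared with Gm12543.

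Calls of the remaining 4 nexins at 24 h were each lost under some alternatives. Snx24 rose by 0.21 ± 0.06 (edgeR adjusted p = 0.0194), but not without fed 24 h replicate 1 or unfed 24 h replicate 3 (adjusted p of 0.0551 to 0.0813). Snx8, a BAR nexin of early endosomes, stood at -0.18 ± 0.06 (edgeR adjusted p = 0.0244), and the call was lost without any 1 of the fed 24 h libraries or without unfed 24 h replicate 2 or 3 (0.0505 to 0.123). Snx11 also had -0.18 ± 0.06 (edgeR adjusted p = 0.0296). It lost its call without any 1 of the fed 24 h libraries or without unfed 24 h replicate 2 (0.0527 to 0.177), and 15.1% of its 50-base stretches are shared with Gm11537. The most abundant member per length, Snx3, had -0.13 ± 0.05 (edgeR adjusted p = 0.0465), and its call was lost under 13 of 17 alternatives, among them the omission of any library except unfed 24 h replicate 2 (0.0549 to 0.156).

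After 3 h of feeding, more members differed from unfed 24 h cells, in both directions. Of 71, 20 were higher (28.2%, against 25.1% of all genes) and 24 were lower (33.8%, against 25.5% of all genes) by edgeR, 44 together (62%, against 50.6%). All 3 fed 3 h libraries lay above all unfed ones in 21 members and below them in 30 (29.1% of all genes each way). Against the other 6 libraries, fed 3 h libraries were all higher in 19 members and all lower in 25 (23.5% of all genes each way), and fed 24 h libraries were all higher in 10 (15% of all genes) and all lower in 10 (15.4% of all genes). The median log2 fold change was -0.04 for members and -0.0085 for all genes, and the median absolute change was 0.164 for members and 0.216 for all genes. Among called members the median absolute change was 0.211, so most called differences were modest. The comparison uses the same unfed libraries as the one at 24 h. Calls were made under each of the 17 alternatives for 34 of the 44 members.

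**Figure D2:**
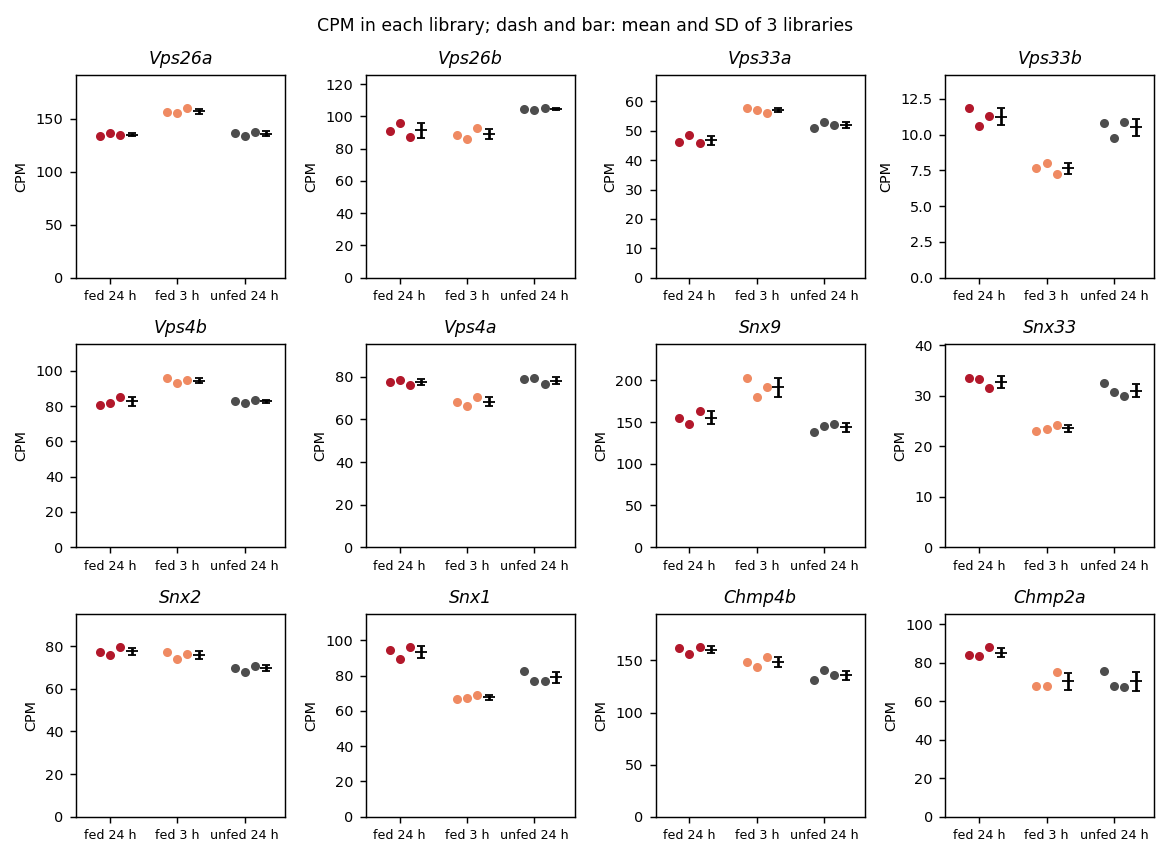
CPM of 12 members in each library, with a dash and bar for the mean and SD of 3 libraries; fed 24 h, fed 3 h and unfed 24 h stand from left to right and each axis starts at 0. Vps26a, Vps33a, Vps4b and Snx9 are highest in fed 3 h cells and Vps33b, Vps4a, Snx33 and Snx1 are lowest there, while Chmp4b and Chmp2a are highest in fed 24 h cells.

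The retromer's interchangeable subunits parted at 3 h. Vps26a had 156.3, 154.9 and 159.6 CPM in fed 3 h and 136.7, 133.4 and 137.5 CPM in unfed 24 h libraries. All fed 3 h values were higher, by 15.5% in the fit (log2 fold change 0.21 ± 0.04 SE, edgeR adjusted p = 0.000287). Vps26b had 88.5, 85.9 and 92.5 CPM in fed 3 h against the tight 104.1 to 104.9 CPM in unfed 24 h libraries, or -0.23 ± 0.05 on the log2 scale (edgeR adjusted p = 0.000587). Vps35 and Vps29 were not called (log2 fold changes 0.03 and 0.09). Both subunits that are particular to retriever fell. Vps26c, the arrestin-like subunit of retriever, had 54.5, 56.1 and 58.8 CPM in fed 3 h and 79.8, 72.0 and 73.0 CPM in unfed 24 h libraries. Its groups were well apart (log2 fold change -0.41 ± 0.05 SE, edgeR adjusted p = 6.31e-06). Vps35l, the scaffold of retriever, fell by 0.16 ± 0.05 (edgeR adjusted p = 0.00852), and so did Snx17, the adaptor that hands integrins and LRP1 to retriever, by 0.17 ± 0.05 (edgeR adjusted p = 0.0118).

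Of 8 tethering genes (HOPS, CORVET and related), 3 were higher and 2 lower at 3 h (25.1% and 25.5% of all genes). Vps18 had 39.3, 36.6 and 37.4 CPM in fed 3 h and 33.2, 32.9 and 31.6 CPM in unfed 24 h libraries, and Vps11, another RING-finger core subunit, had 31.2, 33.0 and 31.3 CPM against 26.5, 27.7 and 28.5 CPM. In both, all fed 3 h libraries were above all unfed ones. The log2 fold change was 0.21 ± 0.05 for Vps18 (edgeR adjusted p = 0.00361) and 0.21 ± 0.05 for Vps11 (edgeR adjusted p = 0.00263). Vps33a, with 57.6, 57.1 and 56.2 CPM in fed 3 h and 50.9, 53.1 and 52.1 CPM in unfed 24 h libraries, rose by 0.13 ± 0.04 (edgeR adjusted p = 0.0195). The call was lost without fed 3 h replicate 1 or 2 or unfed 24 h replicate 1, at adjusted p of 0.0505 to 0.0569. Its relative Vps33b, which works outside HOPS with the protein of Vipas39, had 7.65, 8.01 and 7.27 CPM in fed 3 h and 10.9, 9.80 and 10.9 CPM in unfed 24 h libraries. That was the largest fall of any tested member in this comparison (log2 fold change -0.46 ± 0.08 SE, edgeR adjusted p = 0.000136). Vps39, a HOPS-specific subunit, fell by 0.16 ± 0.05 (edgeR adjusted p = 0.0121; 0.0707 without fed 3 h replicate 3). Vps41, the other HOPS-specific subunit, Vps8, specific to CORVET, and Vps16 were not called, with log2 fold changes of -0.12, 0.05 and 0.10.

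In the tethers GARP and EARP, Vps54, the subunit particular to GARP, rose by 0.20 ± 0.06 (edgeR adjusted p = 0.0106; 0.0507 without fed 3 h replicate 1). The shared subunits Vps51 and Vps52 fell by 0.16 ± 0.05 and 0.19 ± 0.05 (edgeR adjusted p = 0.00922 and 0.00324), and for Vps51 15.2% of 50-base stretches are shared with other genes, Tm7sf2 foremost. Vps50, which takes the place of Vps54 in EARP, and Vps53 were not called.

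Of 19 ESCRT members (ESCRT-I to III and VPS4), 6 rose and 3 fell at 3 h (25.1% and 25.5% of all genes). The paired ATPases that take ESCRT-III filaments apart went in opposite directions. Vps4b had 96.0, 93.0 and 94.6 CPM in fed 3 h and 82.9, 82.0 and 83.6 CPM in unfed 24 h libraries (log2 fold change 0.19 ± 0.04 SE, edgeR adjusted p = 0.000965). Vps4a had 68.2, 66.1 and 70.3 CPM in fed 3 h and 78.8, 79.5 and 76.4 CPM in unfed 24 h libraries (log2 fold change -0.20 ± 0.04 SE, edgeR adjusted p = 0.00101). Neither gene's groups overlapped. Chmp4b rose by 0.13 ± 0.04 (edgeR adjusted p = 0.0179), a call lost without fed 3 h replicate 3 or unfed 24 h replicate 1 (0.0567 to 0.079). Its scarcer relative Chmp4c, known for timing the final cut of cell division, had 3.46, 3.68 and 3.62 CPM in fed 3 h and 2.52, 2.49 and 2.56 CPM in unfed 24 h libraries, all fed values being higher (log2 fold change 0.51 ± 0.13 SE, edgeR adjusted p = 0.00327). Chmp4c overlaps Snx16, which lies on the opposite strand and was also called higher at 3 h. Chmp7, which draws ESCRT-III to the nuclear envelope, fell by 0.17 ± 0.05 (edgeR adjusted p = 0.00972). The other 7 Chmp genes were not called at 3 h, among them Chmp2a with -0.000466 ± 0.06, Chmp2b with 0.02 ± 0.05 and Chmp3 with -0.04 ± 0.04.

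ESCRT-I, which recognises ubiquitinated cargo, showed Vps37a up by 0.18 ± 0.04 (edgeR adjusted p = 0.00399) and Vps37b up by 0.36 ± 0.07 (edgeR adjusted p = 0.000337). These genes encode alternative subunits. Vps37b is uncertain, as 39.7% of its 50-base stretches are shared with other genes, most of them with the overlapping Hip1r. Vps28, a core subunit, fell by 0.15 ± 0.06 (edgeR adjusted p = 0.0325), but not without fed 3 h replicate 1 or 2 or unfed 24 h replicate 1 (0.0934 to 0.165). The ESCRT-II gene Vps25 had 32, 28 and 27 counts in fed 3 h libraries and 14, 11 and 18 counts in unfed 24 h libraries. It shares 59.1% of its 50-base stretches with the overlapping Ramp2, so its call (log2 fold change 0.97 ± 0.29 SE, edgeR adjusted p = 0.0116; 0.0534 without unfed 24 h replicate 2) is uncertain.

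Among the nexins, 9 of 27 rose and 10 fell at 3 h (25.1% and 25.5% of all genes). The largest rise among members above 5 CPM was that of Snx24, a small PX protein, with 24.0, 22.73 and 21.04 CPM in fed 3 h and 13.4, 13.7 and 13.3 CPM in unfed 24 h libraries. Its fed values were 67.8% higher in the fit (log2 fold change 0.75 ± 0.06 SE, edgeR adjusted p = 1.24e-07). Snx30, a BAR nexin related to Snx4 and Snx7, had 18.4, 15.2 and 13.5 CPM in fed 3 h and 10.4, 10.4 and 11.6 CPM in unfed 24 h libraries (log2 fold change 0.54 ± 0.10 SE, edgeR adjusted p = 0.000244). The groups did not overlap although the fed libraries were widely spread. Snx7 fell by 0.28 ± 0.05 (edgeR adjusted p = 0.000298) and Snx4 fell by 0.11 ± 0.04 (edgeR adjusted p = 0.0364), the call of Snx4 being lost in 4 of 9 single-library omissions (fed 3 h replicates 1 and 2, unfed 24 h replicates 1 and 2, adjusted p of 0.0656 to 0.121).

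Snx9, which joins dynamin and actin at endocytic pits and large endocytic cups, had 202.8, 180.1 and 191.6 CPM in fed 3 h and 137.8, 145.3 and 148.1 CPM in unfed 24 h libraries. The lowest fed value was well above the highest unfed one (log2 fold change 0.41 ± 0.05 SE, edgeR adjusted p = 7.9e-06). Snx33, of the same subfamily, went the other way, with 23.0, 23.4 and 24.2 CPM in fed 3 h and 32.5, 30.7 and 29.8 CPM in unfed 24 h libraries (log2 fold change -0.40 ± 0.05 SE, edgeR adjusted p = 1.38e-05). The third gene of that subfamily, Snx18, had a log2 fold change of -0.06 ± 0.04 and was not called.

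In the tubule-forming nexin coat, Snx1 had 66.6, 67.4 and 69.1 CPM in fed 3 h and 82.5, 77.2 and 77.2 CPM in unfed 24 h libraries (log2 fold change -0.22 ± 0.05 SE, edgeR adjusted p = 0.000762). Snx5, the cargo-binding partner of Snx1 and Snx2, rose by 0.13 ± 0.04 (edgeR adjusted p = 0.0101), and its relative Snx6 had -0.10 ± 0.05 and was not called. Snx2 rose by 0.12 ± 0.04 (edgeR adjusted p = 0.0207), but not without fed 3 h replicate 1 or 3 or unfed 24 h replicate 2 (0.0563 to 0.0646). Snx8 had 28.5, 28.5 and 29.1 CPM in fed 3 h and 20.8, 23.8 and 22.9 CPM in unfed 24 h libraries (log2 fold change 0.35 ± 0.06 SE, edgeR adjusted p = 8.32e-05). Snx11 and Snx16, both PX nexins of the late endosome, rose by 0.33 ± 0.06 and 0.37 ± 0.10 (edgeR adjusted p = 0.000179 and 0.00558). Snx16 shares 7.17% of its 50-base stretches with the overlapping Chmp4c, and whether their rises are separate was not tested. Snx21 and Snx15 fell by 0.36 ± 0.06 and 0.29 ± 0.05 (edgeR adjusted p = 0.000139 and 0.00026). Snx10, a PX nexin whose loss causes osteopetrosis in humans through failing osteoclasts, fell by 0.23 ± 0.07 (edgeR adjusted p = 0.012; 0.0661 without unfed 24 h replicate 1). Snx3 fell by 0.15 ± 0.05 (edgeR adjusted p = 0.0126; 0.0558 without unfed 24 h replicate 1), and Snx27 was not called (0.03). Of the nexins with PXA and RGS domains, Snx19 fell by 0.22 ± 0.05 and Snx25 rose by 0.20 ± 0.05 (edgeR adjusted p = 0.00153 and 0.00703), while Snx13 and Snx14 were not called. Nor were Snx12, Snx29 and Snx32.

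Of 4 VPS13 genes, 2 were lower and 0 higher at 3 h. Of the 2 Vps genes outside the complexes named here, 2 were lower (25.5% of all genes were lower and 25.1% higher). Of the VPS13 lipid-transfer proteins, Vps13b and Vps13c fell by 0.20 ± 0.05 and 0.25 ± 0.05 (edgeR adjusted p = 0.0034 and 0.00148), and Vps13a and Vps13d were not called. Vps45, which guides SNARE pairing at the early endosome, fell by 0.26 ± 0.06 (edgeR adjusted p = 0.00166). Vps72 fell by 0.16 ± 0.05 (edgeR adjusted p = 0.00878). Its product is a histone chaperone of chromatin-remodelling complexes and carries the Vps name from yeast genetics.

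**Figure D3:**
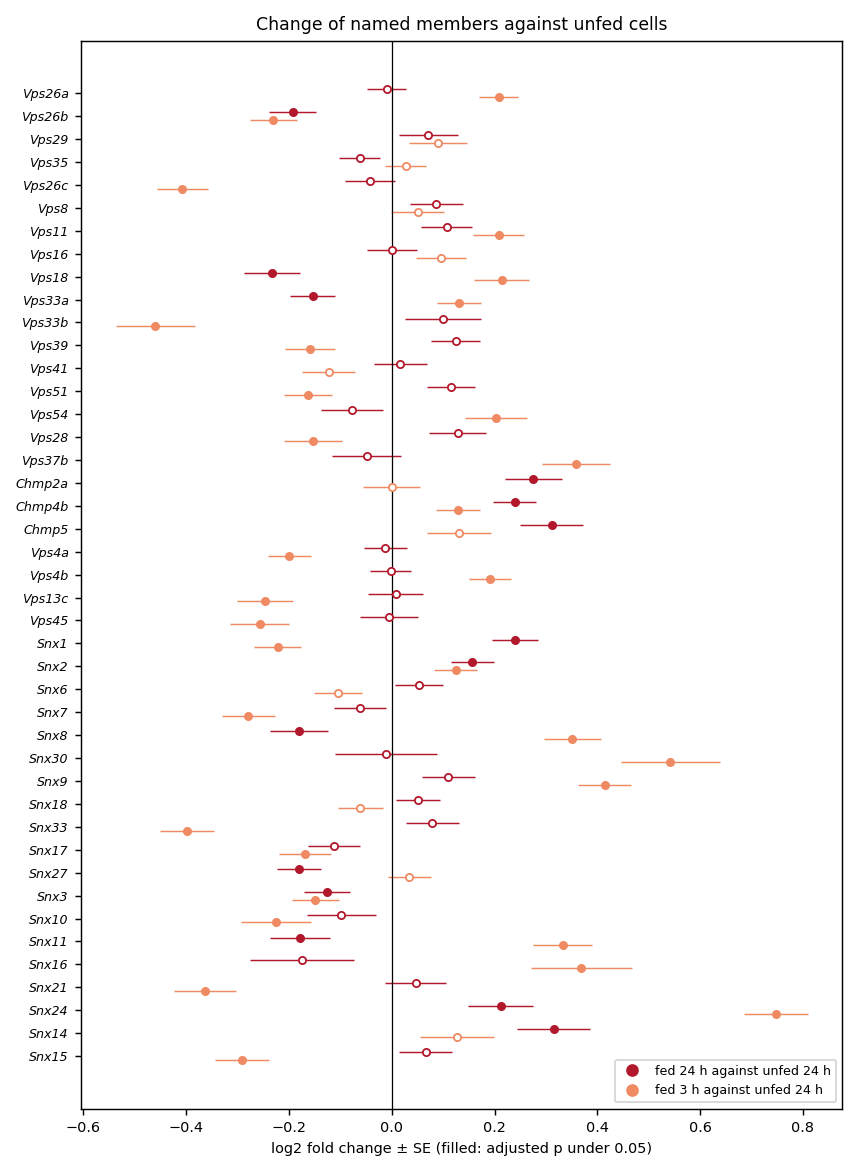
Log2 fold change with SE of named members against unfed 24 h cells, with fed 24 h above fed 3 h for each gene; filled points had an edgeR adjusted p under 0.05. The points of fed 3 h cells lie farther from 0 for most genes shown, and Snx1, Snx8, Snx11, Vps18 and Vps33a have filled points on opposite sides of 0.

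The 2 fed groups were compared directly, with no unfed library in the contrast. In fed 24 h against fed 3 h cells, 30 of 71 members were higher (42.3%, against 30.8% of all genes) and 19 were lower (26.8%, against 30.2% of all genes) by edgeR, 49 together (69%, against 60.9%). All 3 fed 24 h libraries lay above all fed 3 h ones in 32 members (33.3% of all genes) and below them in 24 (32.6% of all genes). The median log2 fold change was 0.07 for members and -0.00172 for all genes. Snx1 differed most among the abundant coat nexins, at 94.3, 89.4 and 95.9 CPM in fed 24 h and 66.6, 67.4 and 69.1 CPM in fed 3 h libraries. The groups lay far apart (log2 fold change 0.46 ± 0.04 SE, edgeR adjusted p = 2.97e-07). Vps33b was higher by 0.56 ± 0.08 (edgeR adjusted p = 1.06e-05), Snx33 by 0.48 ± 0.05 (edgeR adjusted p = 1e-06) and Vps26c by 0.37 ± 0.05 (edgeR adjusted p = 1.02e-05). Chmp2a was higher by 0.27 ± 0.06 (edgeR adjusted p = 0.000455), with 83.9, 83.6 and 87.9 CPM in fed 24 h and 67.7, 68.0 and 75.3 CPM in fed 3 h libraries.

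Among members lower in fed 24 h than in fed 3 h cells, Snx8 had 20.3, 19.6 and 19.6 CPM in fed 24 h and 28.5, 28.5 and 29.1 CPM in fed 3 h libraries, with little spread in either group (log2 fold change -0.53 ± 0.06 SE, edgeR adjusted p = 6.7e-07). Vps18 had 26.9, 29.6 and 26.5 CPM in fed 24 h and 39.3, 36.6 and 37.4 CPM in fed 3 h libraries (log2 fold change -0.45 ± 0.05 SE, edgeR adjusted p = 3.02e-06). Vps26a fell by 0.22 ± 0.04 (edgeR adjusted p = 0.000117), and Snx24, Snx30 and Snx9 fell by 0.54, 0.55 and 0.30. For Vps26b, Vps35 and Vps29 the difference was 0.04, -0.09 and -0.02 and was not called. Several small differences rested on single libraries, each left out in turn. Chmp4b (log2 fold change 0.11) lost its call without replicates 1 and 3 of fed 24 h and 1 and 2 of fed 3 h cells, at edgeR adjusted p of 0.0584 to 0.135. Chmp5 (0.18) lost it without replicates 1 and 3 of fed 24 h and 2 of fed 3 h cells (0.0525 to 0.058), and Snx14 (0.19) without replicates 1 and 3 of either group (0.0699 to 0.117). Snx18 (0.11) lost it without replicates 1 and 2 of fed 24 h and 2 and 3 of fed 3 h cells (0.059 to 0.185), and Vps41 (0.14) without replicate 2 of either group and 3 of fed 3 h cells (0.0631 to 0.168).

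Ratios of the raw counts of 2 relatives within a library do not depend on scaling between libraries. In 25 pairs of relatives, fed 3 h and unfed 24 h ratios did not overlap in 17, fed 24 h and unfed 24 h ratios in 12, and fed 24 h and fed 3 h ratios in 22. The pairs share genes (6 come from 4 Vps13 genes and 6 from 4 Vps37 genes), and the share over pairs of other genes was not counted. Among single tested genes, levels of fed 3 h and unfed 24 h libraries did not overlap in 29.1% each way. For fed 24 h against unfed 24 h libraries, 21.3% lay above and 22% below. For fed 24 h against fed 3 h libraries, 33.3% lay above and 32.6% below. Levels of single genes are an unlike measure to ratios, and the counts of pairs single out no pair. With 3 libraries against 3 the two-sided exact permutation test cannot give a p under 0.1, so no pair could pass 0.05, and the lowest values adjusted over the 25 pairs were 0.147, 0.208 and 0.114 in that order of comparisons. The count ratio of Vps26a to Vps26b was 1.77, 1.80 and 1.72 in fed 3 h and 1.31, 1.28 and 1.31 in unfed 24 h libraries. In fed 24 h libraries it was 1.47, 1.42 and 1.55, between the other groups and overlapping neither. The ratio of Vps33a to Vps33b averaged 4.16 ± 0.344 in fed 24 h, 7.46 ± 0.302 in fed 3 h and 4.96 ± 0.396 in unfed 24 h cells (SD, n = 3 each). That of Snx9 to Snx33 averaged 4.75 ± 0.397, 8.16 ± 0.593 and 4.65 ± 0.369 in the same groups. Fed 3 h cells were the highest in both, by more than the spread. For Vps4a to Vps4b the ratio was 0.71, 0.71 and 0.743 in fed 3 h against 0.951, 0.969 and 0.914 in unfed 24 h libraries, with fed 24 h libraries at 0.893 to 0.962, overlapping the unfed ones. For Snx1 to Snx2 the averages were 1.2 ± 0.0213, 0.894 ± 0.0261 and 1.14 ± 0.0436, so that Snx1 held the larger count except in fed 3 h cells. For Chmp2a to Chmp2b, fed 24 h ratios lay above both other groups, at 1.72, 1.68 and 1.65, against 1.34, 1.43 and 1.41 in fed 3 h and 1.52, 1.38 and 1.34 in unfed 24 h libraries.

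**Figure D4:**
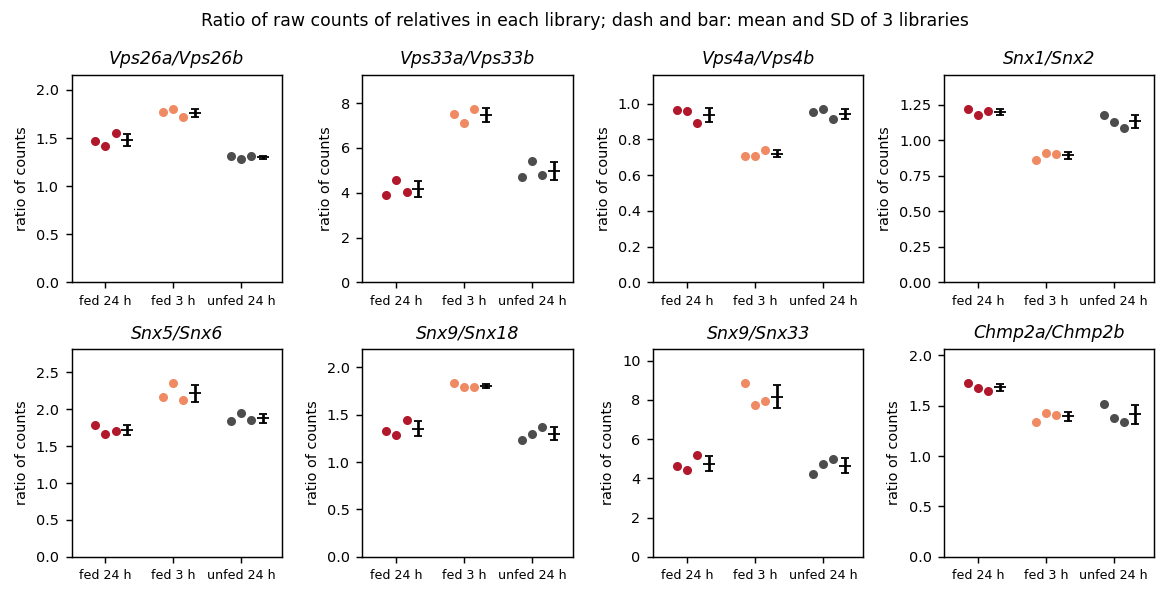
Ratio of the raw counts of 2 related members in each library, for 8 of the 25 pairs, with a dash and bar for mean and SD of 3 libraries and each axis starting at 0. Fed 3 h ratios (middle) lie apart from both other groups in 7 panels, and in the panel of Chmp2a to Chmp2b the fed 24 h ratios (left) do.

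Promoter windows of 300 bases (250 before and 50 after the RefSeq start) were matched for 49 of the 72 members, and motifs were chosen with the fold changes known. The E-box CACGTG, read the same on both strands, was in windows of 7 members (14.3%, against 8.09% of 27025 genes with a window). The 7 members were Vps26a, Vps33a, Vps16, Vps50, Snx5, Snx8 and Snx18. For each motif, the share of all genes was not limited to genes tested here, so it is not like for like with the share of members. The same letters with GT before and AC after them, the palindrome printed above, were in 3 (6.12%, against 0.37% of all genes), Vps26a, Vps33a and Vps16. Of members with a window, CACGTG was in 4 of 12 that were higher at 3 h and 0 of 14 that were lower. It was in 3 of 22 that were not called. The shares with CACGTG among all genes of each call were not counted, and a link of the motif to the calls was not tested. The AP-1 motif TGACTCA, searched on both strands, was in 3 members (6.12%, against 5.95% of genes), and the cyclic AMP motif TGACGTCA was in Chmp2a alone (2.04%, against 2.03% of genes). A match describes the letters only.

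Partners of these proteins were taken from a list of 65 genes, of which 63 were tested. By edgeR, 9 were higher and 9 lower in fed 24 h against unfed 24 h cells, and 14 were higher and 17 lower in fed 3 h against unfed 24 h cells, close to the shares of all genes (14.9% and 15.9% at 24 h, 25.1% and 25.5% at 3 h). Eea1, the Rab5-binding tether of early endosomes, had 118.2, 104.5 and 131.7 CPM in fed 24 h, 193.0, 172.1 and 165.6 CPM in fed 3 h and 88.7, 100.4 and 107.5 CPM in unfed 24 h libraries. Fed 3 h values were far above the others, and fed 24 h values overlapped the unfed ones (log2 fold change 0.84 ± 0.08 at 3 h and 0.26 ± 0.08 at 24 h, edgeR adjusted p = 6.49e-07 and 0.026). Rab7, the late endosome GTPase that recruits retromer and HOPS, rose by 0.35 ± 0.04 at 3 h (edgeR adjusted p = 8.71e-06) and had -0.00662 at 24 h. Pdcd6ip, which encodes the ESCRT-III adaptor ALIX, and Stam, of the first ESCRT complex, rose by 0.29 and 0.30 at 3 h. The deubiquitinase gene Stambp and the ESCRT-I gene Mvb12a fell by 0.45 and 0.35 (edgeR adjusted p = 1.73e-05 and 0.000108). In the commander complex, the retriever's larger assembly, 0 of 11 tested genes rose and 5 fell at 3 h (25.1% and 25.5% of all genes). Vipas39, whose product pairs with that of Vps33b, fell by 0.28 ± 0.05 (edgeR adjusted p = 0.000338).

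Cargo receptors that these routes carry moved in both directions. Itgb1, the β1 integrin recycled through Snx17, had 1853, 1707 and 1765 CPM in fed 3 h and 1086, 1125 and 1152 CPM in unfed 24 h libraries, with no overlap (log2 fold change 0.66 ± 0.04 SE, edgeR adjusted p = 1.4e-08). Lrp1, an engulfment receptor, fell by 0.23 ± 0.07 at 3 h (edgeR adjusted p = 0.00768). Tfrc, the transferrin receptor, had 65.2, 69.1 and 66.0 CPM in fed 24 h, 128.8, 118.9 and 124.8 CPM in fed 3 h and 77.3, 110.7 and 114.5 CPM in unfed 24 h libraries. Fed 24 h values were below all others, and unfed replicate 1 was lower than its group (log2 fold change -0.60 ± 0.10 at 24 h and 0.30 ± 0.10 at 3 h, edgeR adjusted p = 0.000533 and 0.0195). In these bulk libraries, fewer cells of a type and less RNA per cell cannot be told apart.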

How the data were processed

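RNA-seq libraries from ST2 cells (9, in 3 groups of 3) were analysed from the raw counts per mouse gene that the authors deposited, without normalization or pooling. The submitters' processing notes name STAR 2.7.0f, featureCounts of Subread 1.6.4 and MultiQC 1.7, with GRCm38.p6 and GRCh38.p13 as builds. Of the annotation release, strand setting and handling of multi-mapping reads, none is given in the sources used here. The sample protocol and the series text name different library kits, so overlapping genes are uncertain. Coordinates and 50-base stretches shared between genes come from GENCODE M21 (GRCm38).

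Counts were tested with edgeR 4.0.16 in R 4.3.3 (quasi-likelihood F-test, TMM, filterByExpr, 1 fit of all 9 libraries), with Benjamini-Hochberg adjustment over 13568 genes and calls at an adjusted p under 0.05. The common biological coefficient of variation was 0.0536. Replicates differed by 5.47 to 16.1 times counting noise (chi-square per degree of freedom), so none was a duplicate. CPM are TMM-scaled. The fits were tested on simulated data. Alternatives were DESeq2 1.42.0, voom of limma 3.58.1, other size factors, other filters, 6 libraries only, a replicate block, each library left out, and, chosen after seeing the data, leaving out genes linked to ribosomal RNA. Members and lists were chosen with earlier results of these data known. Named were, in each comparison, the 10 largest rises and falls among called members with at least 5 CPM in 1 group, a set list of core genes, and up to 3 called partners per list and direction. Not every gene so named is described.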

Additional observations from a re-analysis of the deposited data

Results flagged for a closer look

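In 5 members the calls against unfed 24 h cells had opposite signs in the 2 fed groups. The share of all genes with such opposite calls was not counted. The difference between the fed groups is also given, with its edgeR test. As the members were picked for opposite calls, a large difference follows from the choice and is no separate support. Snx1 had a log2 fold change of 0.24 in fed 24 h and -0.22 in fed 3 h cells against unfed 24 h cells, and differed by 0.461 between fed 24 h and fed 3 h cells (adjusted p = 2.97e-07). Snx8 had -0.18 and 0.35, and a difference of -0.531 (adjusted p = 6.7e-07). Snx11 had -0.18 and 0.33, and a difference of -0.512 (adjusted p = 1.4e-06). Vps18 had -0.23 and 0.21, and a difference of -0.448 (adjusted p = 3.02e-06). Vps33a had -0.15 and 0.13, and a difference of -0.285 (adjusted p = 3.38e-05). For Snx8, Snx11 and Vps33a the call at 24 h was lost without single libraries (adjusted p up to 0.123, 0.177 and 0.0702). Their difference between the fed groups was called in each alternative, which does not bear on the call at 24 h. Stromal markers summed to 32500 to 34300 CPM in fed 24 h, 26000 to 26700 CPM in fed 3 h and 29500 to 31800 CPM in unfed 24 h libraries, and their part in these values was not tested.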

How the results depend on the processing

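No named member changed direction while called under any of the 17 alternatives: of 2700 values of named members, 2601 kept their side of the threshold, 74 lost it and 25 gained it. Counts of members called moved by over 1.5 times only when a library was left out. Lower members in fed 24 h against unfed 24 h cells, 7 in all, ranged from 3 to 8 without 1 library. With a stricter filter on low counts the median log2 fold change of members was -0.0534 in fed 3 h against unfed 24 h cells (-0.0354 as reported) and 0.094 in fed 24 h against fed 3 h cells (0.0663 as reported). Without 1 library these medians ranged from -0.059 to -0.0148 and from 0.0478 to 0.0932, and the median in fed 24 h against unfed 24 h cells from 0.016 to 0.0388. The cause was not tested. Deviations of same-numbered libraries from their group means had correlations of -0.163 to 0.0578 over genes. For 0 libraries was the same-numbered library the best correlated in both other groups. With 3 libraries per group, such values cannot settle whether the numbers pair samples. With the replicate block, 8 members were higher and 6 lower in fed 24 h, and 21 higher and 23 lower in fed 3 h, each against unfed 24 h cells; 30 were higher and 19 lower in fed 24 h against fed 3 h cells. Depth limits Snx22, Vps25, Vps37d, Chmp4c, Snx29 and Snx32 most, the members with the fewest counts.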

Other observations

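Genes of the WASH complex, which builds actin on endosomes beside retromer, differed in their times. Washc2, which links WASH to retromer, was higher in fed 24 h (log2 fold change 0.29 ± 0.04, edgeR adjusted p = 0.000226) and in fed 3 h cells (0.21 ± 0.04, adjusted p = 0.00104), each against unfed 24 h cells. Washc3 had 36.2, 36.6 and 38.1 CPM in fed 24 h, 24.6, 24.1 and 27.7 CPM in fed 3 h and 33.7, 29.8 and 31.2 CPM in unfed 24 h libraries. Its fed 24 h values were above all others and its fed 3 h values below them (log2 fold change 0.23 and -0.31 against unfed 24 h cells, edgeR adjusted p = 0.0105 and 0.000679). Uvrag, a subunit of the PI3-kinase complex that acts with HOPS, had 55.2, 51.3 and 57.4 CPM in fed 24 h, 39.3, 39.1 and 39.1 CPM in fed 3 h and 50.7, 48.4 and 46.8 CPM in unfed 24 h libraries (log2 fold change 0.17 and -0.31, edgeR adjusted p = 0.0194 and 0.000112). Sort1, sortilin, which carries lysosomal enzymes and is returned by retromer, was scarce, at 4.08 CPM in fed 24 h, 2.54 CPM in fed 3 h and 3.05 CPM in unfed 24 h cells, and rose by 0.42 ± 0.12 at 24 h (edgeR adjusted p = 0.0178). These genes were picked from the partner list by the size of their change.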
